A study of Mus musculus with 6 samples.

Results

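The genes of the cytosolic ribosomal proteins were examined in 4T1 GPD2 KO cells and 4T1 WT cells. They were taken from the expression table by symbol, as every gene named Rpl, Rps or Rplp with a number, plus Rpsa, without the ribosomal S6 kinases and without pseudogenes. This gave 85 of the 12534 genes in the table, of which 46 encode proteins of the large subunit, 31 encode proteins of the small subunit, 5 are paralogs whose symbols end in l or l1 (Rpl7l1, Rpl22l1, Rpl32l, Rpl36al and Rps27l), and 2 are retrogenes (Rps27rt and Rpl37rt). The last member, Rps19bp1, matched the symbol rule but encodes a protein that binds RPS19 and is not a ribosomal protein. The rule itself uses symbols and no expression value. All 85 were among the 12106 genes with enough counts to be tested.

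Each cytosolic ribosome holds a small subunit, which decodes the mRNA, and a large subunit, which joins the amino acids. Both subunits need their proteins in matching numbers, so ribosomal protein mRNAs are among the most abundant in growing cells, and most of them carry a 5′ terminal oligopyrimidine (TOP) motif through which mTORC1 signalling and LARP1 set their translation. The genes are spread over nearly all chromosomes, and mammalian genomes hold many processed copies of them, which makes reads from these mRNAs hard to place.

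4T1 is a mammary carcinoma cell line from a BALB/c mouse. The 4T1 GPD2 KO cells (genotype Gpd2 -/-) lacked mitochondrial glycerol-3-phosphate dehydrogenase after CRISPR-Cas9 editing and came from a line grown out of a single edited cell, so that the knockout and the clone cannot be told apart, and 4T1 WT cells were their reference. Poly(A) RNA was sequenced in 3 libraries of each genotype. In the labels, the treatment text with the Gpd2 guide and the Cas9 vector is attached to WT samples too.

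The libraries held between 51186527 and 59846170 counts, and TMM scaling factors lay between 0.992 and 1.01. Gpd2 itself was at 9.90, 9.95 and 9.88 TPM in KO libraries, against 51.6, 52.1 and 52.0 TPM in WT libraries. Of 8 epithelial markers, Krt7, Krt8 and Krt18 were in the table and all were lower in KO, with a summed level of 987 to 1034 TPM in KO libraries and 1709 to 1804 TPM in WT libraries. Cdh1, Epcam and the other 3 epithelial markers were not analysed here. Of 14 markers of blood, stromal and endothelial cells, 6 were in the table, with a summed level of 37.2 to 43.5 TPM in KO libraries and 64.4 to 68.7 TPM in WT libraries, and their part in the results was not tested.

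Most ribosomal protein mRNAs were expressed at a high level. Of the 85 genes, 66 had a mean above 1000 TPM (a level corrected for transcript length and library size), against a median of 25.3 TPM over the tested genes, and the means ran from 1.12 to 6243 TPM. The highest was Rplp1, a protein of the acidic stalk that recruits translation factors to the large subunit, at 6555, 7411 and 6326 TPM in KO libraries and 5792, 5601 and 5772 TPM in WT libraries. It was followed by Rpl4 with means of 3937 TPM in KO and 3827 TPM in WT, Rpl12, which sits at the base of that stalk, with 3495 TPM in KO and 3568 TPM in WT, Rplp2 with 4036 TPM in KO and 2965 TPM in WT, and Rpl23a with 2962 TPM in KO and 4021 TPM in WT. Apart from Rplp1, which lay above the rest in every library, these levels sat close together, and the order of Rplp2 and Rpl23a was opposite in the 2 genotypes.

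**Figure D1:**
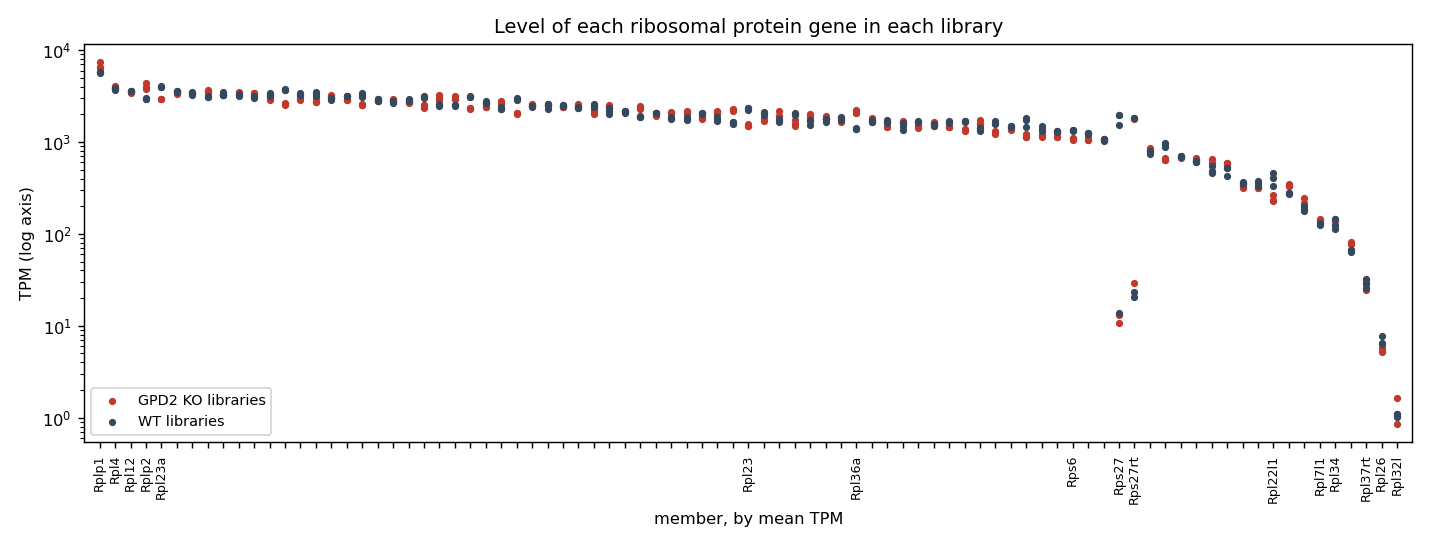
TPM of each ribosomal protein gene (log axis) in the 3 GPD2 KO libraries and the 3 WT libraries, ordered by mean TPM, with some genes labelled. Points of one gene lie close together except for Rps27 and Rps27rt, whose libraries fall at about 2 levels, and the lowest genes are, from left to right, Rpl37rt, Rpl26 and Rpl32l.

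Several of the lowest members were paralogs, retrogenes or genes with near-identical copies. Rpl32l averaged 1.19 TPM in KO and 1.05 TPM in WT, and Rpl37rt averaged 28.2 TPM in KO and 29.2 TPM in WT. Rpl26, which encodes a core protein of the large subunit, was counted at only 5.42 TPM in KO and 6.85 TPM in WT. Rpl34 was counted at 135 TPM in KO and 129 TPM in WT, and the pseudogene Rpl34-ps1 held 89.4% to 91.6% of the reads of that pair in KO libraries and 89.8% to 92.4% in WT libraries. For 39 of the 85 members, 50% or more of the 75-base windows of the transcript also occurred in another annotated gene, and 3 members had no such window, so the level of many members depends on how the authors' counting placed shared reads.

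The ribosomal protein genes moved in both directions and by small amounts. In the edgeR quasi-likelihood test with Benjamini-Hochberg adjustment over all genes at 0.05, 27 of 85 were higher in GPD2 KO (31.8%, against 33.5% of all tested genes) and 30 were lower (35.3%, against 33.3%), and 28 did not pass the test. The share called in either direction, 67.1%, was close to the 66.8% of all tested genes. The median log2 fold change of KO over WT was -0.03 over the members and -0.0008 over all tested genes. The median size of the change, regardless of sign, was 0.19 over the members and 0.29 over all tested genes. The members had a median level of 1920 TPM and all tested genes one of 25.3 TPM, and sizes were not compared at matched levels. The libraries are bulk, so fewer cells with an mRNA and less of it per cell cannot be told apart.

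Only 5 members differed by a fold of 1.5 or more, and 54 of the 57 called members changed by less than that. None passed the thresholds of the study, a fold of 2 with an edgeR exact test p under 0.05, which 8.64% of all tested genes passed (3.86% higher and 4.78% lower). Without the fold limit, 22 members were higher and 22 were lower at an unadjusted exact test p under 0.05. The quasi-likelihood test gave 59 members at an unadjusted p under 0.05 and DESeq2 gave 60, and both gave 0 members with a fold of 2. No share over all tested genes is given at these unadjusted limits, so these counts say nothing about the members in particular. The KO and WT values did not overlap in 58 members (68.2%, against 71.1% of all tested genes).

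Large subunit genes were lower more often than higher. Of 46, 20 were lower (43.5%, against 33.3% of all tested genes), 12 higher (26.1%, against 33.5%) and 14 did not pass (median log2 fold change -0.07). Of the 31 small subunit genes, 9 were lower (29.0%) and 12 higher (38.7%), beside the same shares over all tested genes, and 10 did not pass (median 0.04). Of the 5 paralogs, Rpl7l1 and Rps27l were higher, Rpl22l1 was lower, and Rpl36al and Rpl32l did not pass. Neither retrogene passed.

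The summed TPM of the family differed by less than the SD of the KO libraries, and its share of reads by slightly more than theirs. The TPM of all 85 genes summed to 160412, 168280 and 162332 in KO libraries, against 166896, 165021 and 167628 in WT libraries, and the groups overlapped (two-sided exact permutation test p = 0.4, where 3 against 3 libraries cannot give less than 0.1). As a share of all reads, the members took 5.91% ± 0.145 in KO and 6.09% ± 0.0455 in WT (SD, n = 3 each; exact permutation p = 0.2). The large subunit genes summed to 94871, 99673 and 95931 TPM in KO libraries, against 100560, 99655 and 100531 TPM in WT libraries (exact permutation p = 0.2). In CPM, not corrected for length, the same sum was lower in every KO library, at 34504, 36406 and 35279 CPM, against 37190, 36728 and 37044 CPM in WT libraries (exact permutation p = 0.1, the smallest possible). The small subunit genes averaged 63858 ± 2515 TPM in KO and 63820 ± 1238 TPM in WT (SD, n = 3 each; exact permutation p = 1). The log2 ratio of large to small subunit TPM was 0.61, 0.58 and 0.61 in KO libraries, against 0.68, 0.65 and 0.63 in WT libraries. All 3 KO libraries had the lower ratio, with a difference of -0.05 and the smallest p that the exact permutation test can give with these libraries (0.1). The small subunit sum in this ratio also lacks Rps27rt, which raises the ratio in KO replicates 1 and 3 and WT replicate 1 relative to the other libraries. The ratio with the Rps27 pair kept together was not tested.

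The acidic stalk genes Rplp1 and Rplp2 rose. Rplp2 was counted at 770, 893 and 804 CPM (counts scaled to library size, which compare libraries and not genes) in KO libraries, against 596, 611 and 603 CPM in WT libraries. Every KO library was above every WT library, and the log2 fold change was 0.45 ± 0.05 (SE; edgeR adjusted p = 3.55e-05). Its partner Rplp1 rose by 0.24 ± 0.06 (edgeR adjusted p = 0.00382). Rplp0, the protein on which these pairs are mounted, had 1585, 1660 and 1578 CPM in KO libraries and 1532, 1525 and 1501 CPM in WT libraries. Its log2 fold change of 0.08 ± 0.03 passed narrowly (edgeR adjusted p = 0.0316) and no longer passed without any of KO replicate 2 or the WT replicates in turn (adjusted p up to 0.11), nor under the edgeR exact test (adjusted p = 0.308), limma on log2(TPM + 1) (0.0576) or without the filter on low counts (0.0555). Rpl12 differed by -0.03 ± 0.03 and did not pass (edgeR adjusted p = 0.398).

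The largest falls were mostly in large subunit genes. Rpl23, a protein of the subunit interface that also binds MDM2, had 725, 744 and 774 CPM in KO libraries, against 1166, 1096 and 1137 CPM in WT libraries. The groups stood well apart, with a log2 fold change of -0.60 ± 0.04 (edgeR adjusted p = 5.52e-07). Rpl15, a core protein that contacts many rRNA helices, fell by 0.53 on the log2 scale (edgeR adjusted p = 5.93e-06), and Rpl19, which reaches across to the small subunit, fell by 0.52 (adjusted p = 5.69e-07).

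Rpl39, Rpl23a and Rpl10 also fell. Rpl39, a small protein that lines the tunnel for the growing chain, had 227, 250 and 228 CPM in KO libraries, against 351, 293 and 368 CPM in WT libraries. Its log2 fold change was -0.52 ± 0.08 (edgeR adjusted p = 0.000248), with WT replicate 2 nearer to the KO libraries than the other WT libraries were. Rpl23a, at the mouth of the tunnel, where it contacts the signal recognition particle, fell by 0.44 (adjusted p = 8.77e-07). Rpl10, which joins the large subunit last, during its final maturation in the cytoplasm, had 745, 754 and 766 CPM in KO libraries and 1097, 1053 and 1083 CPM in WT libraries, a fall of 0.51 on the log2 scale (edgeR adjusted p = 4.34e-07).

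The largest rise among genes past the test was Rpl36a. It had 459, 508 and 463 CPM in KO libraries, against 314, 307 and 323 CPM in WT libraries, a log2 fold change of 0.60 ± 0.04 (edgeR adjusted p = 2.46e-06), equal in size to the fall of Rpl23. Rpl27a rose by 0.33 (adjusted p = 1.51e-05) and Rpl18 by 0.27 (adjusted p = 0.000814). Rpl5 and Rpl11, which bind the 5S rRNA and, outside the ribosome, hold back MDM2 and so stabilise p53, differed by little. Rpl5 had 1277, 1274 and 1319 CPM in KO libraries and 1406, 1397 and 1367 CPM in WT libraries, a log2 fold change of -0.11 ± 0.03 (edgeR adjusted p = 0.00688, 0.0522 without WT replicate 1, and 0.17 under the exact test). Rpl11 differed by -0.04 ± 0.03 (adjusted p = 0.287).

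Among small subunit genes, Rps19, the gene most often mutated in Diamond-Blackfan anaemia, rose most. It had 624, 670 and 649 CPM in KO libraries, against 476, 454 and 480 CPM in WT libraries, with no overlap and a log2 fold change of 0.46 ± 0.04 (edgeR adjusted p = 4.25e-06). Rps15a rose by 0.30, Rps16 by 0.26, Rps13 by 0.25, Rps28 by 0.24 and Rps25, which is needed at several viral internal ribosome entry sites, by 0.24 (edgeR adjusted p between 6.23e-05 and 0.00291). Rps19bp1 rose in the same direction as the gene of the protein it binds, by 0.26 ± 0.04 (adjusted p = 0.00043).

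Rps24, another gene mutated in Diamond-Blackfan anaemia, had the largest fall among small subunit genes past the test. It had 871, 909 and 918 CPM in KO libraries, against 1203, 1187 and 1227 CPM in WT libraries, a log2 fold change of -0.42 ± 0.03 (edgeR adjusted p = 2.15e-06). Rps27a, which is made as a fusion with ubiquitin and is one of the cell's sources of it, fell by 0.36 (adjusted p = 2.9e-05). Rps6, the substrate by which S6 kinase activity is usually read, had 706, 683 and 700 CPM in KO libraries and 867, 871 and 858 CPM in WT libraries. The groups did not overlap, and the log2 fold change was -0.31 ± 0.03 (edgeR adjusted p = 8.25e-06).

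The members with the smallest differences were Rpl9 at 0.01 ± 0.05, Rps23, a protein of the decoding centre, at -0.01 ± 0.03, and Rps2 at 0.02 ± 0.04 on the log2 scale (SE). Each had overlapping KO and WT values. The SE limits these differences to small sizes, but a p that missed the threshold does not show that they were equal.

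The paralogs were compared with their partner genes, since a paralog can replace its partner in the ribosome or act beside it. Rpl22l1, a paralog that the RPL22 protein holds down in mouse cells, is at chr3:28805508-28807424 (GRCm38), and its coding sequence was identical to that of Rpl22 (chr4:152324436-152334082) in 67.5% of aligned positions. It had 50.4, 58.9 and 52.1 CPM in KO libraries, against 89.9, 72.5 and 102 CPM in WT libraries. All KO libraries were lower, and the WT libraries spread more widely. The log2 fold change, -0.71 ± 0.11 (edgeR adjusted p = 0.000295), was the largest of any member past the test.

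Rpl22 itself had 316, 335 and 319 CPM in KO libraries, against 360, 333 and 379 CPM in WT libraries, and these groups overlapped. Its log2 fold change of -0.14 ± 0.05 passed (edgeR adjusted p = 0.0258) but did not pass under the exact test (adjusted p = 0.126) or when KO replicate 1, KO replicate 3, WT replicate 1 or WT replicate 3 was left out (adjusted p up to 0.092). The log2 TPM ratio of Rpl22l1 to Rpl22 was -0.45, -0.31 and -0.42 in KO libraries, against 0.20, -0.003 and 0.31 in WT libraries. The paralog was thus below its partner in every KO library and close to or above it in WT libraries, with a difference of -0.56 (exact permutation p = 0.1, the smallest possible; 0.167 adjusted over 5 pairs).

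Rpl36al and Rpl36a, identical in 87.9% of coding positions, differed in response. Rpl36al had 162, 166 and 160 CPM in KO libraries and 168, 164 and 167 CPM in WT libraries, a difference of -0.03 ± 0.04 on the log2 scale (edgeR adjusted p = 0.474). Rpl36a rose, as given above, and the log2 ratio of paralog to partner was -1.58, -1.70 and -1.61 in KO libraries, against -0.99, -0.99 and -1.03 in WT libraries (difference -0.63, exact permutation p = 0.1, adjusted over 5 pairs 0.167). The longest identical run between the 2 coding sequences was 24 bases, shorter than the 75-base windows. Of those windows, 61.3% in Rpl36al and 84.6% in Rpl36a occur in other genes. Reads of either gene may therefore have been shared with such other genes by the counting.

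Rpl7l1 and Rpl7 moved in opposite directions. Rpl7l1 (chr17:46773907-46782656) had 167, 175 and 171 CPM in KO libraries, against 156, 148 and 156 CPM in WT libraries, a log2 fold change of 0.16 ± 0.04 (edgeR adjusted p = 0.00694; 0.0766 under the exact test). Rpl7 (chr1:16101295-16104433) had 1067, 1031 and 1084 CPM in KO libraries, against 1321, 1303 and 1350 CPM in WT libraries, a fall of 0.32 (adjusted p = 1.11e-05). The log2 ratio of Rpl7l1 to Rpl7 was -4.11 ± 0.07 in KO and -4.59 ± 0.03 in WT (SD, n = 3 each), a difference of 0.48 (exact permutation p = 0.1, adjusted over 5 pairs 0.167). The coding sequences were identical in 54.5% of positions.

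Rps27l, a target of p53, had 140, 157 and 144 CPM in KO libraries, against 117, 110 and 133 CPM in WT libraries, and rose by 0.29 ± 0.07 (edgeR adjusted p = 0.00519). Rpl32l was too low to compare with Rpl32 (0.23, 0.46 and 0.31 CPM in KO libraries, against 0.29, 0.30 and 0.28 CPM in WT libraries; the ratio differed by 0.19, exact permutation p = 0.6). Rpl32 did not pass the test either (-0.05 ± 0.04, edgeR adjusted p = 0.251).

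**Figure D2:**
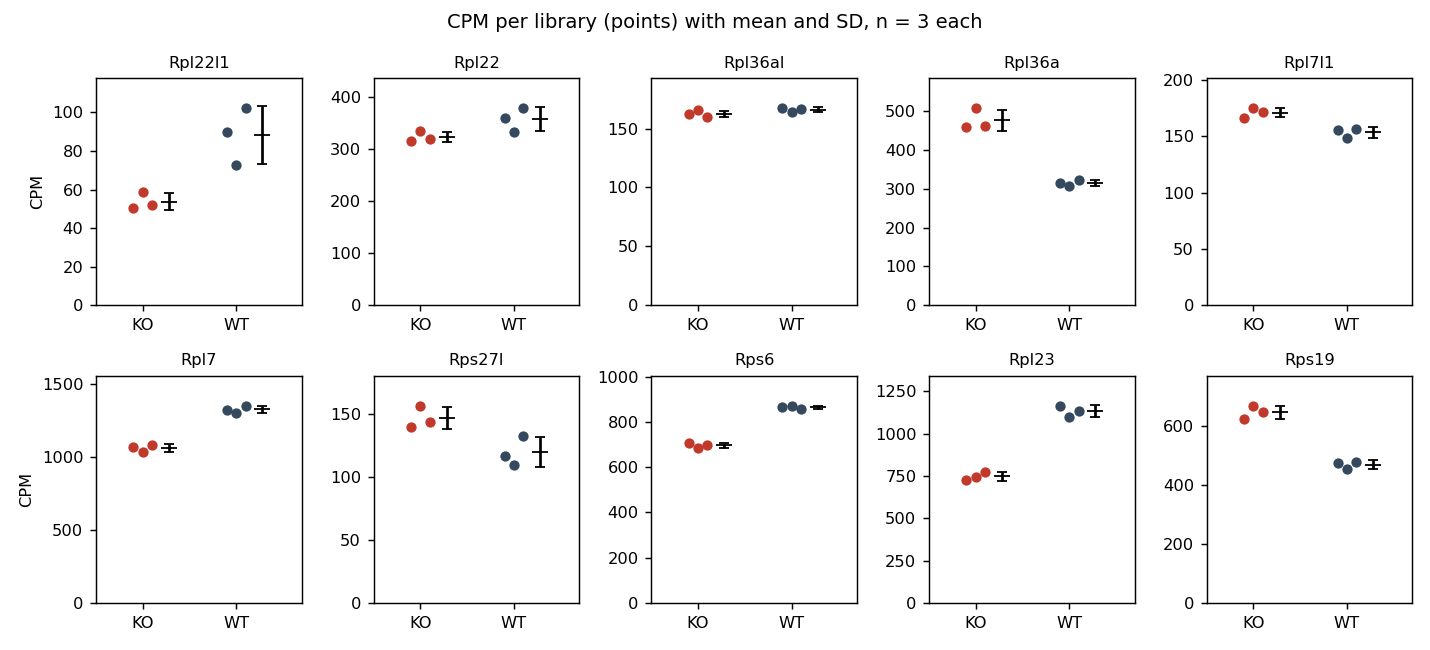
CPM per library (points), with the mean and SD of 3 libraries, for 4 paralogs with 3 of their partners and for Rps6, Rpl23 and Rps19; KO is left of WT in each panel and every axis starts at 0. Rpl22l1, Rpl7, Rps6 and Rpl23 lie lower in KO, Rpl36a, Rps19, Rpl7l1 and Rps27l lie higher, and Rpl36al and Rpl22 overlap.

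Rps27 and its retrogene Rps27rt could not be read as separate genes. Rps27 (chr3:90212667-90213648, GRCm38) encodes a zinc-finger protein of the small subunit, and Rps27rt (chr9:114982366-114982739) is an intronless copy of it. Their coding sequences, 255 bases from start to stop codon, were identical at all 255 positions in the transcript annotation. The sequence they share is shown because a read from it can be assigned to either gene:
Rps27 and Rps27rt coding sequence: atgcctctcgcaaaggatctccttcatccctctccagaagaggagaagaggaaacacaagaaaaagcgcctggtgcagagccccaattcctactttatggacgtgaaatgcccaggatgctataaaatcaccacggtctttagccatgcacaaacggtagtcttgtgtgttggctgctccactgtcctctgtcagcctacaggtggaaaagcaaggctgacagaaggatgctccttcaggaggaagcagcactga

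The counts of this pair switched between the genes from library to library. Rps27 had 174, 17372 and 156 counts in KO libraries, against 201, 14771 and 16744 counts in WT libraries. Rps27rt had 14191, 252 and 16228 counts in the same KO libraries, against 16178, 224 and 175 counts in WT libraries. In each library one gene held nearly all reads of the pair, and the share of Rps27 was 1.21%, 98.6% and 0.952% in KO libraries and 1.23%, 98.5% and 99.0% in WT libraries. KO replicate 2 therefore resembled WT replicates 2 and 3, and WT replicate 1 resembled KO replicates 1 and 3.

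The sum of the pair was even, at 14365, 17624 and 16384 counts in KO libraries and 16379, 14995 and 16919 counts in WT libraries. With both counted as one gene the log2 fold change was 0.07 (edgeR adjusted p = 0.494). Counted apart, Rps27 gave -0.77 with an SE of 1.6 (adjusted p = 0.688) and Rps27rt gave 0.94 with an SE of 1.55 (adjusted p = 0.614). Leaving out KO replicate 2 gave Rps27 a called log2 fold change of -5.92 (adjusted p = 0.0105), and leaving out WT replicate 1 gave Rps27rt one of 5.77 (adjusted p = 0.00734), so for this pair 1 library decided the call. Against the sum, the log2 ratio of Rps27l was higher in all KO libraries by 0.22 (exact permutation p = 0.1).

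**Figure D3:**
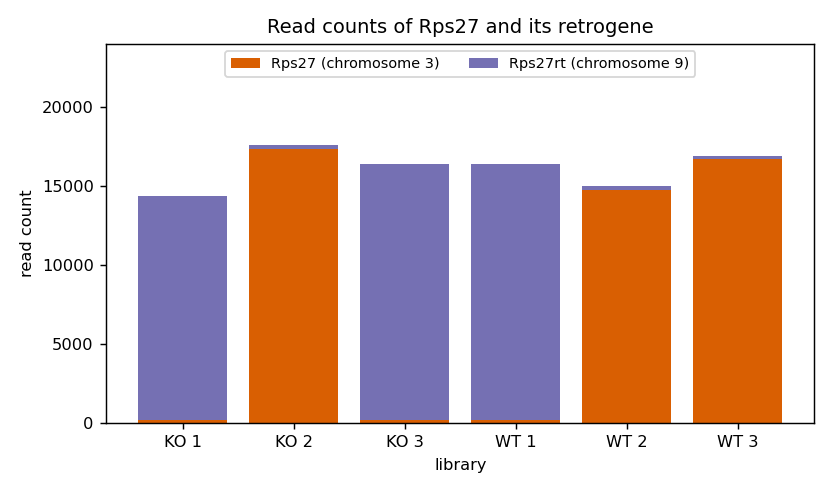
Read counts of Rps27 and Rps27rt stacked for each library, KO libraries left of WT libraries. The total of the pair lies between 14365 and 17624 in all 6 libraries, while KO 1, KO 3 and WT 1 hold it as Rps27rt and KO 2, WT 2 and WT 3 hold it as Rps27.

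For some chromosomes, the direction in which a member moved went with the chromosome it lies on. This grouping was made after the values were seen. All 10 called members on chromosomes 8, 11 and 14 were lower (the remaining one of 11, Rpl26, did not pass), and all 19 called members of 24 on chromosomes 7, 9 and 16 were higher. Of the 46 members on the other autosomes, 6 rose, 18 fell and 22 were not called. Over all tested genes the shares were 33.5% higher and 33.3% lower. Some of these autosomes showed no match. On chromosome 2 none of 4 members was called, while 40.6% of other tested genes were higher and 24.1% lower. On chromosome 4, 4 of 5 members were lower and 0 higher, beside 26.4% and 34.3% of other genes. On chromosome 1 all 3 members were lower, beside 39.7% of other genes lower and 21.2% higher.

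The other genes of chromosomes 8, 11 and 14, and those of 7, 9 and 16, mostly moved the same way as the members there. On chromosome 11, Rpl23, Rpl19, Rpl23a, Rps27a, Rpl38 and Rpl27 were lower and Rpl26 did not pass (6 of 7), and 70.4% of the 1009 other tested genes there were lower too and 8.33% higher. Both the members and these other genes had a median log2 fold change of -0.36. In single KO libraries the median of those other genes, relative to the WT mean, was -0.35, -0.34 and -0.35. Chromosome 14 held Rpl15 and Rps24, both lower, and 72.9% of its 406 other genes were lower and 5.42% higher (median -0.39). On chromosome 8, where Rpl13 was lower, at a log2 fold change of -0.14 (edgeR adjusted p = 0.00859), 65% of its 649 other genes were lower and 8.78% higher (median -0.30).

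Chromosome 7 was the counterpart. It carries 14 members, and 11 of them were higher and none was lower, while 59.9% of its 951 other tested genes were higher and 12.4% were lower (median 0.26). Relative to the WT mean, the median of these other genes was 0.25, 0.24 and 0.25 in the 3 KO libraries. Rps19, Rplp2, Rpl27a, Rps15a, Rpl18, Rps16 and Rps13, which are 7 of the largest rises above, are all on this chromosome. On chromosome 9, where 52.2% of other genes were higher and 17.5% lower (median 0.19), 6 of 8 members were higher and none was lower. On chromosome 16, where 57.1% of other genes were higher and 14.2% lower, Rpl24 and Rpl35a were both higher.

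The 4 members on the X chromosome, where 40.6% of other tested genes were higher and 36.8% lower, split by position. Rpl39 and Rpl10 were lower, and the 50 nearest tested genes outside the family had medians of -0.26 and -0.49. Rps4x and Rpl36a were higher, at 0.10 ± 0.03 and 0.60 ± 0.04, and their 50 nearest genes had medians of 0.29 and 0.45. The call of Rps4x was narrow (edgeR adjusted p = 0.0252, and 0.213 under the exact test).

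**Figure D4:**
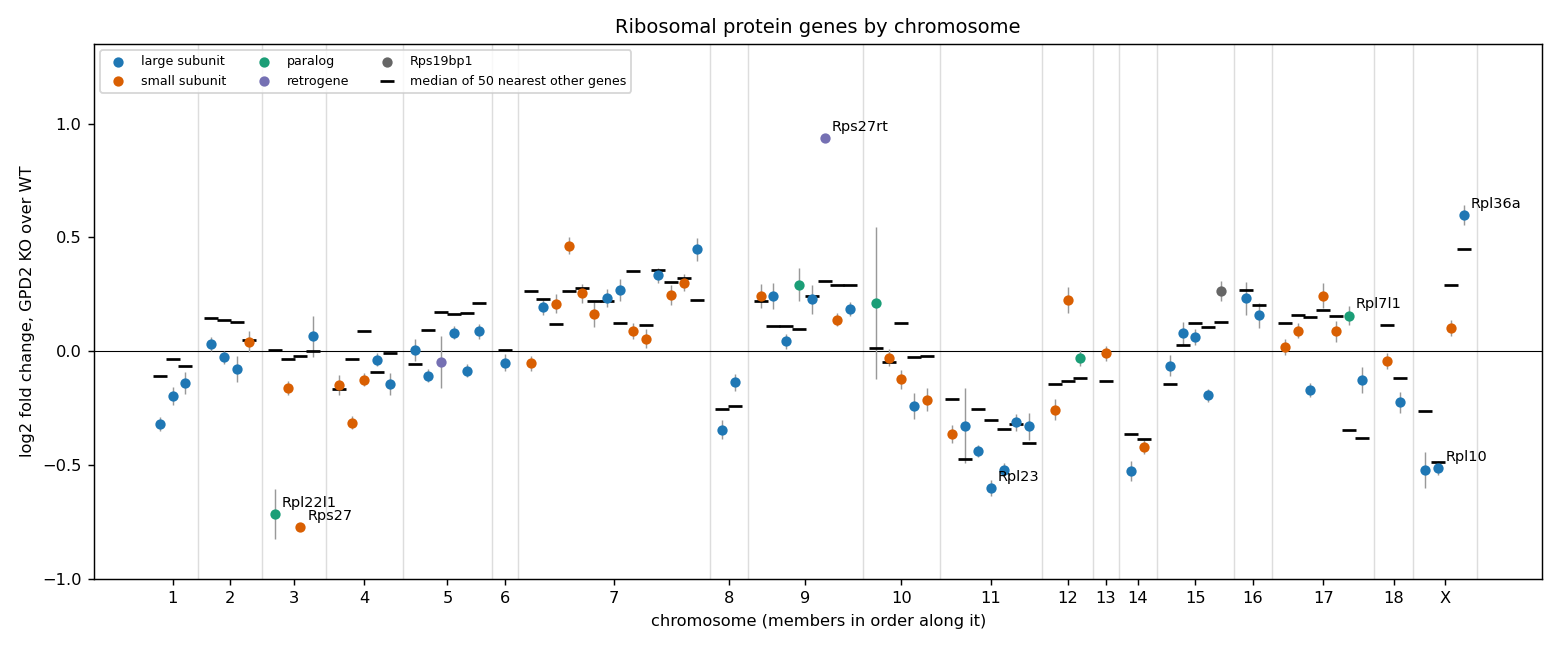
Log2 fold change of GPD2 KO over WT for each member, in order along each chromosome (points, bars are SE, none drawn for Rps27 and Rps27rt), with the median of up to 50 nearest tested genes outside the family (dashes). Members on chromosomes 8, 11 and 14 lie below 0 and most on 7, 9 and 16 lie above, near the dashes; Rpl22l1, Rpl7l1, Rps27 and Rps27rt lie far from theirs.

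Across the 85 members the log2 fold change and the median of the 50 nearest other genes had Pearson's r of 0.72 and Spearman's rho of 0.75. These neighbours were the 25 tested genes on each side, and fewer for members near a chromosome end, such as 28 for Rps20 and 36 for Rps9. The correlations are across genes measured in the same 6 libraries, which are not independent replicates, and are given as a description. With whole-chromosome medians r was 0.68, without Rps27 and Rps27rt it was 0.75 (n = 83), and in the 12 members with under 10% of their windows in other genes it was 0.54. It was 0.85 in the 46 large subunit genes and 0.67 in the 31 small subunit genes. The log2 fold change had r of -0.04 with coding length, 0.12 with the GC content of the transcript, -0.03 with log2 mean TPM and -0.11 with the share of windows found in other genes.

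By neighbourhood, 13 of the 16 members whose neighbours had a median below -0.15 were lower, and 20 of the 28 whose neighbours had a median above 0.15 were higher. Of the 41 between, 6 were higher and 15 were lower. Among all tested genes 33.5% were higher and 33.3% lower, and the shares of other genes in such neighbourhoods are not given. The SD of the members' log2 fold changes was 0.29, and 0.20 after the median of the neighbours was subtracted. After subtraction 64 of 85 members lay within 0.2 of their neighbours, 56 lay below them and 29 above, and the median was -0.06. Subtraction also brought the subunits together, with medians of -0.07 for both the large and the small subunit genes. Chromosomes 8, 11 and 14 hold 9 of the 46 large subunit genes and 2 of the 31 small subunit genes, and chromosomes 7, 9 and 16 hold 11 of each. What part the change of a whole neighbourhood had in the change of a member was not tested.

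Members that stood more than 0.3 from their neighbours numbered 7. Besides Rps27 and Rps27rt they were Rpl22l1, 0.72 below neighbours with a median of 0.01, and Rpl7l1, which rose among neighbours with a median of -0.35 and so stood 0.50 above them. Rps29, a zinc-finger protein of the small subunit, had 338, 391 and 349 CPM in KO libraries, against 311, 292 and 319 CPM in WT libraries, a rise of 0.22 ± 0.06 (edgeR adjusted p = 0.00647) beside neighbours at -0.13. Rpl10a fell by 0.17 (adjusted p = 0.000781) beside neighbours at 0.15, and Rps9 differed by -0.05 ± 0.03 without passing the test, beside neighbours at 0.27. Just inside that limit were Rpl3 and Rpl23, each 0.30 below neighbours with medians of 0.10 and -0.30, and Rps6, 0.28 below neighbours with a median of -0.03.

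**Figure D5:**
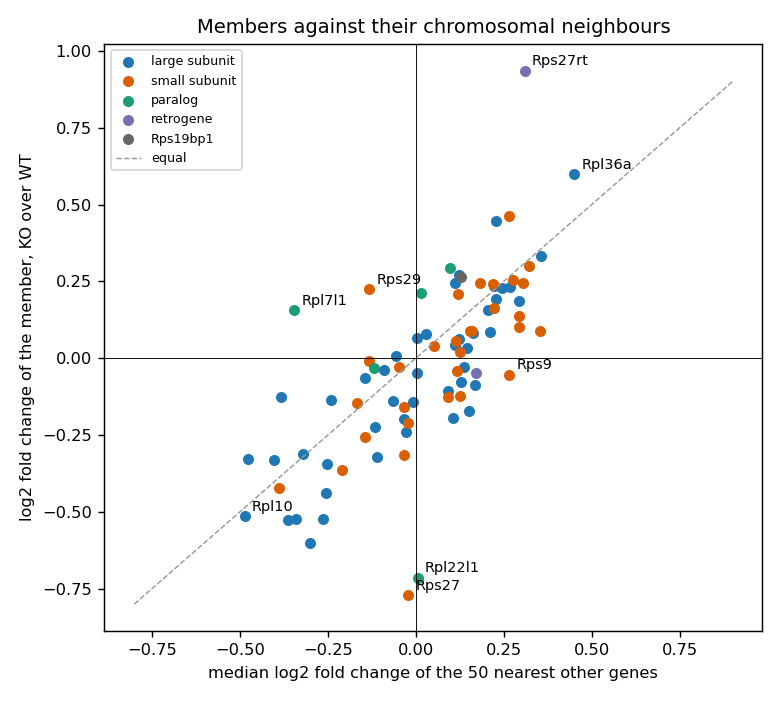
Log2 fold change of each member against the median log2 fold change of up to 50 nearest tested genes outside the family, both KO over WT, with the line of equality dashed. Most members lie along the line (r = 0.72, n = 85), and Rps27, Rpl22l1, Rpl7l1 and Rps27rt lie farthest from it.

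The TOP motif was looked for at the annotated start. RefSeq promoter windows (GRCm38.p6) matched 65 members. The motif was taken as a run of a C followed by at least 4 more pyrimidines (C or T), read in the sense of the mRNA from its first base. It was present in 15 of the 65 (23.1%), against 2.93% of 9520 other tested genes and 3.01% of all 27025 genes in the table of promoters. A gene with several annotated starts was scored by the start with the longest such run, for members and other genes alike. Annotated starts often lie some bases from the main start used in a cell, so a start without the run says only that these letters are not there. Of the 15, 6 rose, 3 fell and 6 did not pass, and the other 50 matched members split into 16 rises, 19 falls and 15 not past the test. The shares over all tested genes were 33.5% higher and 33.3% lower. Starts of 4 members that moved in opposite directions and of the Rps27 pair are shown, 30 bases each with 10 before the start, and capitals mark the pyrimidine run:
Rps6 (lower; chr4:86857348-86857377, minus strand): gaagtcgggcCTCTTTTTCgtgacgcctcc
Rpl15 (lower; chr14:18270967-18270996, minus strand): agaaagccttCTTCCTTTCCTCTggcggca
Rplp2 (higher; chr7:141447641-141447670, plus strand): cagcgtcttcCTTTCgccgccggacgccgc
Rps15a (higher; chr7:118116128-118116157, minus strand): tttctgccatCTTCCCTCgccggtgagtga
Rps27 (not past the test; chr3:90213629-90213658, minus strand): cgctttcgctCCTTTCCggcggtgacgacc
Rps27rt (not past the test; chr9:114982720-114982749, minus strand): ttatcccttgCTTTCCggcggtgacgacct

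Ribosomal components that the symbol rule does not take were looked at as well. Rack1, a scaffold on the small subunit encoded on chromosome 11, had 2252, 2300 and 2194 TPM in KO libraries, against 3270, 3301 and 3268 TPM in WT libraries (log2 fold change -0.54, edgeR adjusted p = 2.94e-07). Fau, the fusion gene of a small subunit protein on chromosome 19, rose by 0.14 (adjusted p = 0.0166).

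Of 31 genes outside the ribosome that were listed from background knowledge as TOP mRNAs, 14 were lower and 7 higher (median log2 fold change -0.07), beside 33.3% lower and 33.5% higher over all tested genes. Their starts were not examined one by one. Tpt1, the translationally controlled tumour protein, had 2861, 2880 and 2773 TPM in KO libraries, against 5114, 5110 and 5160 TPM in WT libraries, a fall of 0.85 (edgeR adjusted p = 1.22e-08) that exceeded that of any ribosomal protein gene past the test. Npm1, a nucleolar chaperone of ribosome assembly, fell by 0.53 and Vim by 0.39, while Eif3f rose by 0.54. Of 22 regulators of TOP mRNAs, 11 were higher and 7 lower, beside the same shares over all tested genes. Larp1, which binds the TOP motif, fell by 0.33 (164, 163 and 162 TPM in KO libraries, against 204, 208 and 204 TPM in WT libraries; edgeR adjusted p = 5.95e-06). Deptor, an inhibitor of mTOR, fell by 0.61, whereas Akt1s1, another mTORC1 inhibitor, rose by 0.67 and Cnbp, which binds TOP sequences, rose by 0.37.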

How the data were processed

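RNA of 3 4T1 GPD2 KO and 3 4T1 WT libraries (TruSeq Stranded mRNA) was analysed. Per the paper's methods and the submitters' processing notes, Trimmomatic 0.38 removed adapters, HISAT2 2.1.0 mapped the reads to mm10 and StringTie 1.3.4d quantified genes. The counts deposited by the authors are raw and whole, for genes with at least 1 count in all 6 libraries. Beside them the authors deposited TPM and FPKM, scaled within each library, and log2 of scaled CPM plus 1. The authors' signed fold, a score, and the deposited p-values of their exact test were not used. The handling of multi-mapped reads and of strand in the counting was not stated in these sources, so reads of near-identical, overlapping or antisense genes may be shared. The paper describes its samples in general as biologically independent, but the labels do not say that these libraries came from separate cultures, so p-values measure only the spread between these libraries, which may be technical. Replicates differed by more than sampling noise, with a chi-square per degree of freedom of 17.1 to 25.7.

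Counts were tested in R 4.3.3 with edgeR 4.0.16 (TMM, filterByExpr with a minimum count of 10, quasi-likelihood test, Benjamini-Hochberg adjustment over 12106 genes, threshold 0.05), a workflow tested on simulated data. Standard errors of log2 fold changes came from the quasi-likelihood F. Sums and paralog ratios were compared by two-sided exact permutation tests. Alternatives were DESeq2 1.42.0, limma 3.58.1 on log2(TPM + 1) and log2(TPM + 0.1), the edgeR exact test, other scalings, no filter, a replicate block and leaving out each library. Positions were RefSeq (GRCm38, the assembly of mm10; 12512 of 12534 genes matched), coding sequences and 75-base windows GENCODE vM21, and starts the RefSeq promoter table.

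The members and gene lists were chosen with earlier results of these data known. Genes named were the paralogs and their partners, the stalk genes, Rps6, Rpl5, Rpl11 and Rps27a, the 8 largest rises and falls among other members past the test, the 5 of highest TPM, the 3 of smallest change and, from other lists, up to 4 genes of smallest adjusted p. Rps27rt, Rpl37rt, Rpl34, Rpl26, Rps29, Rpl10a, Rps9, Rps26, the members named by chromosome and those on the X chromosome were named after their values were seen. Sequences of members on chromosome 18 are not shown, and a few genes that this rule takes are left out by name.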

Additional observations from a re-analysis of the deposited data

How the results depend on the processing

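Over the other settings that used all 6 libraries and no fold limit, 20 to 29 members were higher and 22 to 31 were lower (fewest under the edgeR exact test, most under DESeq2), and without 1 library 21 to 28 were higher and 25 to 35 lower. Apart from the replicate block below, shares over all tested genes are not given for these settings, so these counts show only how the calls vary. A fold of 2 with an exact test p under 0.05 left 0 higher and 0 lower, by its own limit. The median of the members lay between -0.05 and -0.02 without 1 library. The sum of the small subunit genes, KO minus WT, ran from -1396 to 953 TPM and that of the paralogs from -106.1 to 13.96 TPM without 1 library, and the paralogs differed by 6.61 in CPM, so neither has a fixed direction. The small subunit sum takes Rps27 without Rps27rt, so its range also carries the switch of that pair. The Rpl32l to Rpl32 ratio ran from -0.035 to 0.39. Rpl9 changed sign with library totals only (-0.0026), and Rpl34 (-0.053) and Rps27 (0.068) changed sign when their copies were counted with them. Without 1 library, the log2 fold change changed sign in Rpl32l (-0.10 to 0.40), Rpl9 (-0.050 to 0.035), Rps2 (-0.0051 to 0.043), Rpl37rt (-0.15 to 0.042), Rps23 (-0.033 to 0.0042) and Rpl34 (-0.011 to 0.17), none of which passed the test. Rps4x no longer passed without KO replicate 1, KO replicate 3 or WT replicate 2 (adjusted p up to 0.103).

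The replicate numbers were not found to pair the samples: the deviations of same-numbered KO and WT libraries correlated at 0.29, 0.14 and -0.14. Across other numbers, KO replicate 3 correlated with WT replicate 1 at 0.20, and KO replicate 2 with WT replicate 3 at 0.30 and with WT replicate 1 at -0.43. Positive values joined KO replicates 1 and 3 with WT replicate 1, and KO replicate 2 with WT replicates 2 and 3, the same split as in Rps27 and Rps27rt. What this split reflects was not tested. A fit with the replicate number as a block gave 26 members higher and 30 lower, beside 7974 of the 12106 tested genes called in either direction. Rplp0 was lost in that fit (0.08, edgeR adjusted p = 0.0542). Depth limits the low members, such as Rpl32l and Rpl26, and near-identical copies limit many abundant ones. Summed copies, neighbour medians and window shares were chosen after seeing the data.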

Other observations

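Among genes that build ribosomes, most of those past the test were higher in GPD2 KO. Of 43 chaperones and assembly factors of ribosomal proteins, 24 were higher and 5 lower in the edgeR quasi-likelihood test (median log2 fold change 0.20), and of 56 genes of rRNA transcription and processing, 34 were higher and 10 lower (median 0.17), beside 33.5% higher and 33.3% lower over all tested genes. Tsr2, the chaperone that carries RPS26, had 43.3, 44.2 and 45.3 TPM in KO libraries, against 25.33, 24.98 and 25.35 TPM in WT libraries (log2 fold change 0.81, edgeR adjusted p = 1.51e-07). Its client gene Rps26 fell by 0.21 (adjusted p = 0.00494). Grwd1, whose yeast counterpart is a chaperone of the RPL3 protein, rose by 0.56 and Bccip by 0.58, both on chromosome 7. Rrp9, a component of the U3 small nucleolar ribonucleoprotein on chromosome 9, had 231, 262 and 228 TPM in KO libraries, against 128, 127 and 130 TPM in WT libraries (log2 fold change 0.91, adjusted p = 9.97e-07). Heatr1, Utp20, Nolc1 and Rrp12, on chromosomes 13, 10 and 19, rose by 0.45, 0.48, 0.46 and 0.49.

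Of 39 translation initiation factors, 20 were higher and 10 lower (median 0.17), beside 33.5% higher and 33.3% lower over all tested genes. Eif2s3x and Eif1ax, both on the X chromosome, rose by 0.56 and 0.58 and Eif3c, on chromosome 7, by 0.60, whereas the helicase Eif4a1, on chromosome 11, fell by 0.46 (edgeR adjusted p between 4.02e-07 and 1.05e-06). Of 14 elongation and termination factors, 6 were higher and 3 lower (median 0.01), beside the same shares over all tested genes. Eef2k, the kinase that inhibits elongation factor 2, rose by 0.42, the release factors Etf1 and Gspt1 by 0.29 and 0.36, and Eif5a2 by 0.47. No test compared these lists with each other or with the ribosomal protein genes.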
